A study of Danio rerio with 26 samples.

Results

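Brains of 3 year old zebrafish were compared with brains of 1 year old zebrafish, all from male Danio rerio under 37.5 nM rotenone, across every gene counted. The libraries were chosen by their age and dose labels alone: 7 at 3 years and 9 at 1 year, 16 of the 26 libraries in the series. By their strain labels the younger fish are AB JxTu and the older ones AB JxTu Tg(flk:mCherry), a reporter line named for the flk promoter, which is active in blood vessel endothelium. Age and strain label coincide, so their effects cannot be told apart. The other 10 libraries, of 1 year AB JxTu fish at 3.75 nM, stand in a table of their own and give levels for reference only. The groups used here share rotenone, a plant-derived pesticide that blocks complex I in mitochondria. The length of exposure is not given in the sources used here. Each title has its own fish number, and the labels do not state pooling. The p-values measure the spread between these samples.

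The adult zebrafish brain keeps adding neurons from radial glia. Young neurons use SOX transcription factors and growth cone proteins, and mature neurons tell each other apart by surface adhesion molecules, among them the clustered protocadherins. Neuropeptides are signalling molecules packed in dense core vesicles and act over longer distances than glutamate or GABA. Microglia are the brain's resident macrophages and are rich in lysosomes.

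Levels are counts per 1000000 (CPM), scaled by TMM. In units of 1000000 counts, library totals ranged from 21.1 to 36, so a level of 1 CPM rested on about 21.1 counts or more. The brain-defining markers were present in every library, with summed levels of 22850 to 30330 CPM at 1 year and 18680 to 25530 CPM at 3 years, and none was at 0 in all 16. Title numbers fall in a lower run (174 to 181; 4 libraries at 1 year, 3 at 3 years) and a higher run (194 to 202; 5 and 4). Other tissues stood out in single libraries: skeletal muscle genes summed to 4182 CPM in replicate 4 against 533.5 to 711.7 in the other 15, eye and pineal genes to 603.3 CPM in replicate 1 and 227.0 CPM in replicate 5, and pancreas and liver genes to 1602 CPM in replicate 9, all of 1 year. Skin and mucosa genes ranged from 362.6 to 846.6 CPM at 1 year and from 389.7 to 1011 CPM at 3 years, highest in 3 year replicates 7 (1011) and 5 (876.0), and none of 26 passed the age test (median log2 fold change 0.56). A fit given below leaves out 4 libraries with high muscle, eye, pituitary or skin scores: 1 year replicates 1, 4 and 5 and 3 year replicate 7. It keeps 3 year replicate 5 and 1 year replicate 9.

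The libraries also differed in their HOX genes. HOX genes of groups 1 to 8 pattern the hindbrain and spinal cord, and 14 of them were measured. Their mean log2 CPM was 1.38 to 3.29 in all 7 brains of 3 years and 2.25 to 3.41 in 5 brains of 1 year. In the other 4 brains of 1 year it was lower: -1.78 in replicate 3, -2.87 in replicate 5, -2.22 in replicate 7 and -0.15 in replicate 9, of which 3 are in the higher run. Transcription factors of the telencephalon, the forebrain end, overlapped between the ages, at 2.47 to 4.18 at 1 year and 2.37 to 3.89 at 3 years. No HOX gene of this list passed the age test. How far this difference between 1 year brains enters the results below was not tested beyond the values with and without these 4 libraries.

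**Figure D1:**
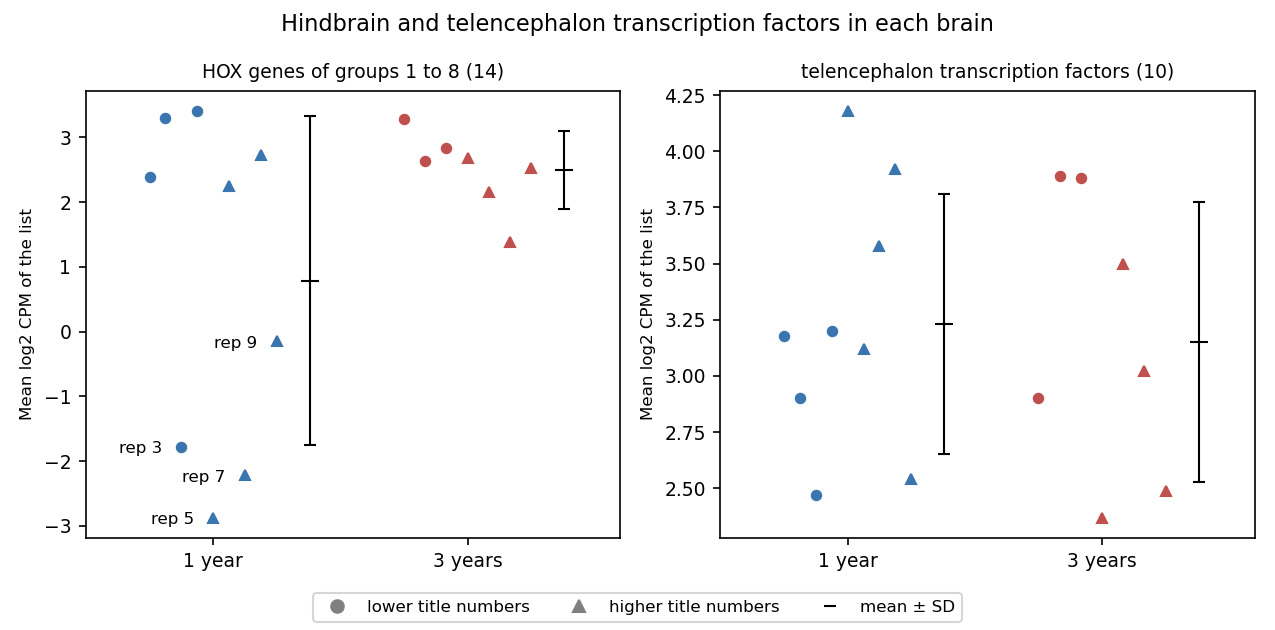
Mean log2 CPM of 14 HOX genes (left) and 10 telencephalon transcription factors (right) in each brain, with circles for lower and triangles for higher title numbers and bars for mean ± SD. The 1 year replicates 3, 5, 7 and 9 lie between -2.87 and -0.15 on the left, below all other brains.

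More genes were higher than lower at 3 years, and the increases were larger. Of 19887 genes tested with the quasi-likelihood F test of edgeR, with title run as a covariate and adjustment over all genes, 1160 rose (5.83%) and 815 fell (4.1%) at adjusted p under 0.05, together 9.93%. The median log2 fold change was 0.75 among genes that rose and -0.34 among genes that fell, beside 0.00 over all genes. At least 2-fold, 408 rose (2.05%) and 66 fell (0.332%). In bulk tissue, fewer cells of a type and less RNA per cell cannot be told apart.

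Immune genes took a larger share of the rise than of the fall. Of the genes called, 150 that rose and 8 that fell matched a broad immune name pattern, 255 and 122 had clone names or no symbol, and 755 and 685 were other named genes. Of 590 tested genes of the immune pattern 432 did not pass, or 26.8% called beside 9.93% of all genes. The samples of both ages did not overlap in 150 genes (0.754%), of which 91 were higher (0.458%) and 59 lower (0.297%) at 3 years, and 148 of the 150 passed the test.

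The number of calls depended on the libraries used. Of 1975 called genes, 1974 had the same sign in both title runs, and no gene passed the test of a difference between runs (1534 at unadjusted p under 0.05; DESeq2 called 16). Within the lower run 5 genes were higher and 11 lower, and within the higher run 651 and 414. Without the 4 libraries with low HOX genes, 112 genes were higher and 67 lower. All 1973 called genes tested there kept their sign, and the median log2 fold change was 0.69 over those that rose and -0.30 over those that fell. These genes were chosen by the fit to all 16 libraries. Their agreement in sign between runs and in this subset follows largely from that choice and is no separate support.

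The gene with the largest fall among the well expressed named genes was ncam3, of the neural cell adhesion molecule family. It had 32.3 to 83.1 CPM at 1 year (median 59.0) and 9.28 to 19.9 CPM at 3 years (median 18.0), so the groups did not overlap (log2 fold change -1.91 ± 0.23 SE, adjusted p = 0.000925). Brains of 1 year at 3.75 nM, scaled together with the others but not tested against them, ranged from 11.1 to 73.0 CPM with a median of 19.6. The 3.75 nM brains thus covered values of both ages.

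IPO8, a receptor for nuclear import, fell next. The 1 year brains lay close together at 168.6 to 212.6 CPM (median 183.7), and the 3 year brains had 31.5 to 60.9 CPM except replicate 5 at 110.4 (log2 fold change -1.84 ± 0.24 SE, adjusted p = 0.000926). All 3 year brains lay below all 1 year brains, and the 3.75 nM brains had 171.5 to 210.6 CPM.

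SMAD1, which carries bone morphogenetic protein (BMP) signals into the nucleus, split the 1 year fish. Replicates 1, 3 and 9 had 41.1, 43.8 and 51.5 CPM, near the 31.9 to 43.2 CPM of the 3 year brains, and the other 6 had 112.4 to 158.8 CPM. The log2 fold change was -1.42 ± 0.29 (SE, adjusted p = 0.00843). In the BMP and TGF-beta list 4 genes rose, 6 fell and 66 of 76 did not pass, or 13.2% called beside 9.93% of all genes. Its other falls included the endothelial receptor acvrl1 (-0.60 ± 0.11 SE) and the inhibitory SMADs SMAD7 (-0.36 ± 0.08 SE) and SMAD6 (-0.34), while TGFBR2, a TGF-beta receptor, rose by 0.54.

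Further large falls came from genes of varied roles. The prolactin gene prl2 had 5.35 to 29.4 CPM at 1 year and 2.87 to 12.8 CPM at 3 years, with overlap (-1.72 ± 0.41 SE). Pituitary genes as a list were lower in sum at 3 years too, at 635.6 to 940.0 CPM against 931.1 to 1388 CPM. Without the libraries with high muscle, eye, pituitary or skin scores, prl2 kept its sign and did not pass (-1.48, adjusted p = 0.0871 with edgeR). The part of pituitary tissue in the prl2 result was not tested beyond this fit. The peptide gene pth2 (-1.04), the adenylate kinase gene ak7a (-1.21), the scaffold gene CASKIN2 (-1.10), the protease gene CAPN1 (ENSDARG00000055338, -1.005) and CORIN, a protease known for activating natriuretic peptides in mammals (-0.97), also fell. CORIN lost its call when any of 4 single libraries was left out (3 year replicates 2, 3 and 4, 1 year replicate 7). With the HOX level as a further covariate, pth2 (adjusted p = 0.0707 with edgeR), CASKIN2 (0.0544) and CORIN (0.0683) did not pass. They also did not pass without the low-HOX libraries, or without those with high muscle, eye, pituitary or skin scores.

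**Figure D2:**
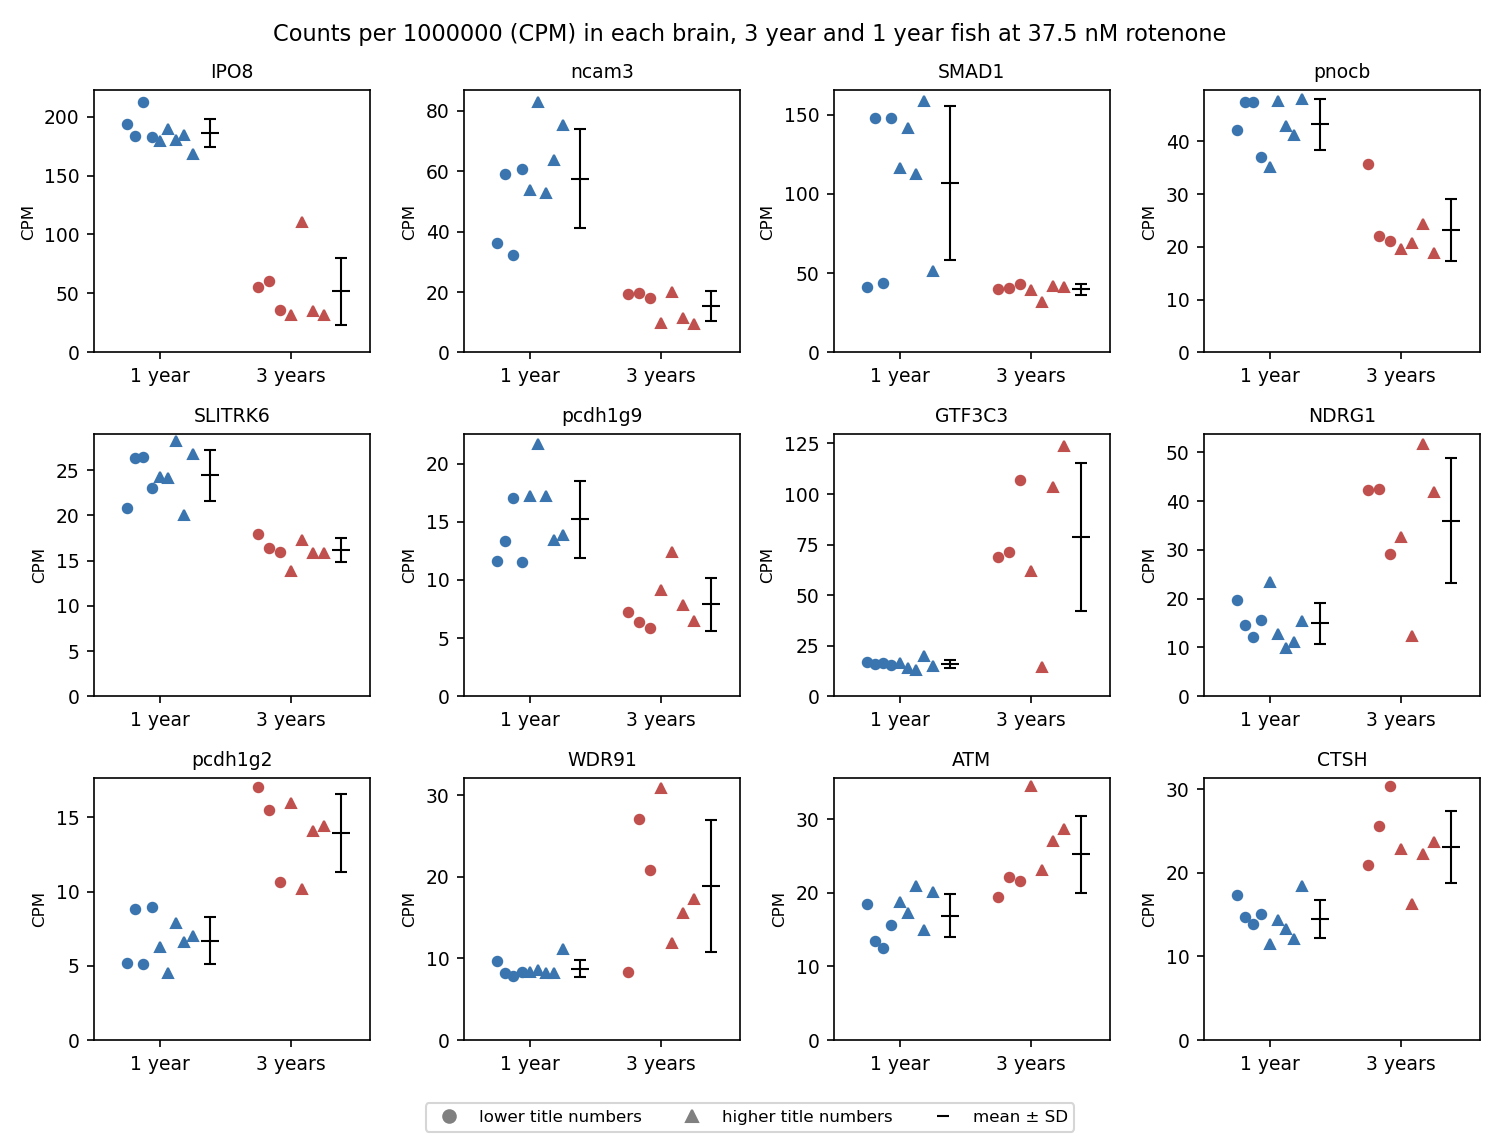
CPM of 12 genes in each brain, with circles for lower and triangles for higher title numbers and bars for mean ± SD, on axes that start at 0. For IPO8, ncam3, SLITRK6 and pcdh1g2 the ages do not overlap, SMAD1 splits the 1 year brains, and 3 year replicate 5 lies at the 1 year level for GTF3C3 and NDRG1.

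Among the largest increases, several were carried by most but not all old fish. GTF3C3, a subunit of the factor TFIIIC that recruits RNA polymerase III, had 13.1 to 19.9 CPM at 1 year and 62.1 to 124.0 CPM in 6 brains of 3 years. The remaining one, replicate 5, had 14.3 CPM (2.30 ± 0.29 SE, adjusted p = 0.000926). Its neighbours in the RefSeq gene order, fastkd2 of mitochondrial RNA handling (1.12 ± 0.19 SE) and mdh1b of the malate dehydrogenase family (2.81 ± 0.37 SE), rose as well and were low in the same fish. In replicate 5 fastkd2 had 14.9 CPM against 29.6 to 55.2 CPM in the other 3 year brains. The 3.75 nM brains of 1 year had 12.8 to 20.5 CPM of GTF3C3.

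Other large increases were spread over signalling and transport genes. NDRG1 (ENSDARG00000032849), a stress- and differentiation-linked gene, had 9.80 to 23.4 CPM at 1 year and 29.1 to 51.6 CPM at 3 years except 12.3 CPM in replicate 5 (1.27 ± 0.24 SE). The inositol phosphatase gene inppl1b had 1.24 to 3.56 CPM at 1 year. At 3 years 5 brains had 3.20 to 7.84 CPM and replicates 6 and 7 had 72.2 and 70.0 CPM, so the size of its fold change (2.95 ± 0.68 SE) came mostly from 2 fish. The inppl1b call was lost with the HOX level as a further covariate (adjusted p = 0.0795 with edgeR). It was also lost without the low-HOX libraries (0.229) and without those with high muscle, eye, pituitary or skin scores (0.0614). WDR91, known in mammals for endosome maturation, rose from a median of 8.31 to 17.3 CPM, with 3 year replicate 1 at 8.30 CPM (1.11 ± 0.21 SE).

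The erbB receptor erbb3b, which Schwann cells and oligodendrocytes use to sense neuregulin, rose by 1.11 ± 0.23 (SE), from 6.56 to 12.7 CPM at 1 year to 10.5 to 31.3 CPM at 3 years. It did not pass with the HOX level as a further covariate (adjusted p = 0.0586 with edgeR). The same held without the low-HOX libraries (0.168) and without those with high muscle, eye, pituitary or skin scores (0.0539). The erbb3b partner ERBB2 (0.72) and EGFR (0.50) also rose, within a growth factor list of 6 genes higher, 8 lower and 85 not past the test of 99 (14.1% called). BDNF, a neurotrophin, fell from a median of 72.8 to 58.7 CPM (-0.41 ± 0.09 SE) and NTRK3, the receptor of neurotrophin 3, by 0.36 on the log2 scale (-0.36 ± 0.07 SE). In the myelin list only OLIG2 (0.39, lost in 10 of 16 fits that left out 1 library) and erbb3b rose among 25 genes (8.0%).

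Of the lists compared, neural adhesion molecules, with the pcdh1 cluster described below included, held the highest share of called genes outside the immune and tissue lists of at least 20 genes. That cluster gave 3 of the 4 increases and 7 of the 25 falls of this list, so the rank holds only with it included. Of 129 tested, 25 fell, 4 rose and 100 did not pass, or 22.5% called beside 9.93% of all genes, with a median log2 fold change of -0.10. SLITRK6, a synapse organising protein, had 20.03 to 28.3 CPM at 1 year and 13.8 to 17.9 CPM at 3 years without overlap (-0.60 ± 0.08 SE, adjusted p = 0.000941). Smaller falls came from NCAM2 (-0.35), the cadherins cdh4 (-0.28) and CDH13 (-0.24), the presynaptic neurexins nrxn2a (-0.23) and nrxn3b (-0.29), and their partners NLGN3 (-0.17) and nlgn2b (-0.31). With the HOX level as a further covariate 9 fell and 3 rose, and without the 4 libraries with low HOX genes 4 fell and 3 rose.

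Within this list the clustered protocadherins of the pcdh1 cluster changed in both directions. Each gene of such a cluster encodes a different extracellular part. Of 21 genes tested, 3 rose, 7 fell and 11 did not pass, or 47.6% called. The gene pcdh1g2 had 4.53 to 8.98 CPM at 1 year and 10.2 to 17.0 CPM at 3 years, without overlap (1.06 ± 0.15 SE, adjusted p = 0.00168). By contrast pcdh1g9 went from 11.6 to 21.7 CPM down to 5.86 to 12.4 CPM (-0.96 ± 0.14 SE), and pcdh1g33 from 28.4 to 49.6 CPM down to 11.1 to 30.0 CPM (-0.98 ± 0.15 SE). Both of the latter overlapped by a little, and every 3 year brain lay below the 1 year median.

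The other increases were pcdh1gc6 (0.86 ± 0.15 SE) and pcdh1g3 (0.79 ± 0.155 SE), and the other falls pcdh1g14, pcdh1a6, pcdh1gb2, pcdh1gc5 and pcdh1g31, from -1.08 to -0.51. In sum the 21 genes had 346.1 ± 41.9 CPM (SD, n = 9) at 1 year and 279.9 ± 24.1 CPM (SD, n = 7) at 3 years. None of the 11 genes of the pcdh2 cluster passed the test, with sums of 106.0 ± 18.6 and 110.0 ± 19.6 CPM (SD). Whether the clusters differ from each other was not tested. In the RefSeq order pcdh1g2, pcdh1g3, pcdh1gb2 and pcdh1g9 form a run of 4 called genes, of which the first pair rose and the second fell. The genes of a cluster are alike in sequence, and the sources used here do not say how a read matching several of them was counted, so single values are uncertain.

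**Figure D3:**
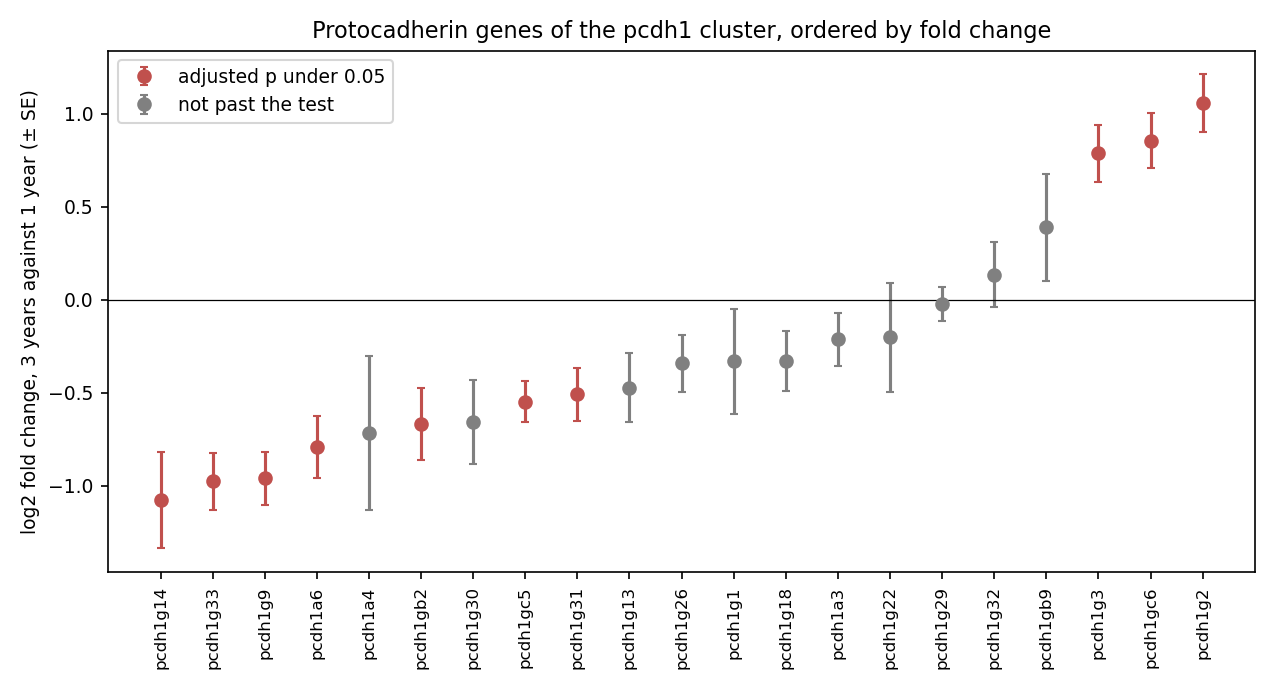
Log2 fold change at 3 against 1 year with its SE for the 21 genes of the pcdh1 cluster, with genes past the test in red. The 3 increases (0.79 to 1.06) and 7 falls (-1.08 to -0.51) lie on both sides of 0.

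Transcription factors of the homeobox and SOX families were called in one direction. Of 147 tested, 19 fell, none rose and 128 did not pass, or 12.9% called beside 9.93% of all genes, with a median log2 fold change of -0.12. The SOX genes of newborn neurons and their precursors were among them: SOX11 went from 26.2 to 35.3 CPM at 1 year to 17.7 to 29.2 CPM at 3 years (-0.45 ± 0.09 SE), and the 2 copies of SOX4 (-0.36 and -0.32) and of SOX1 (-0.40 and -0.29) fell together. Among homeobox genes pou3f1 fell from a median of 52.6 to 43.3 CPM (-0.32 ± 0.06 SE), with LHX2 (-0.31), lhx5 (-0.31), LHX9 (-0.41) and OTP, a factor of hypothalamic neuroendocrine cells (-0.38). With the HOX level as covariate 7 of the list fell, and without the low-HOX libraries 3. Without the libraries with high muscle, eye, pituitary or skin scores, 12 fell and 1 rose. None of the 35 radial glia and astroglia genes passed the test in either direction.

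Of 103 genes of microtubules, motors and neurofilaments, 11 fell, 2 rose and 90 did not pass, or 12.6% called beside 9.93% of all genes, and the median log2 fold change of the list was near 0 (-0.01). The falls included the growth cone proteins STMN2 (from a median of 355.6 to 287.0 CPM, -0.29 ± 0.07 SE), STMN4 (-0.37) and DPYSL2 (-0.27), and the tubulin gene tuba1c, at 590.4 to 827.4 CPM and 436.5 to 587.1 CPM without overlap (-0.34 ± 0.07 SE). MAP1A, which stabilises microtubules of mature dendrites and axons, rose instead, from 375.1 to 532.1 CPM to 486.2 to 586.6 CPM (0.35 ± 0.06 SE). Only MAP1A and tmsb of this list passed the test without the low-HOX libraries.

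The neuropeptide genes that passed the test were all lower at 3 years. Of 59 tested, 11 fell, none rose and 48 did not pass, or 18.6% called beside 9.93% of all genes, with a median log2 fold change of -0.29. By title run, the median difference of mean log2 CPM was -0.06 in the lower and -0.46 in the higher run. Whether the list differs between runs was not tested. The nociceptin precursor pnocb led the falls, with 35.2 to 48.1 CPM at 1 year and 18.8 to 24.3 CPM in 6 brains of 3 years (-0.90 ± 0.12 SE, adjusted p = 0.000926). The remaining one, 3 year replicate 1, had 35.8 CPM, and 3.75 nM brains had 22.7 to 37.3 CPM, overlapping the ranges of both ages. Other falls were CARTPT (ENSDARG00000045832), an appetite peptide (-0.69 ± 0.14 SE), sst7 of the somatostatin family (-0.53 ± 0.12 SE), neurotensin NTS (-0.71), the enkephalin precursor PENK (-0.85) and the stress peptides CRH (-0.41) and UCN (-0.41).

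The other 3 genes with the symbol CARTPT did not pass, with adjusted p from 0.106 to 0.792. With the HOX level as covariate 3 neuropeptide genes fell, as without the low-HOX libraries and as without the 4 libraries with high muscle, eye, pituitary or skin scores.

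Of 67 monoamine and acetylcholine receptor genes, 7 fell, none rose and 60 did not pass. The 10.4% called lay near the 9.93% of all genes. The falls were led by the dopamine receptor drd4b (-0.77, without overlap) and the serotonin receptor htr1aa, with 21.7 to 34.5 CPM at 1 year and 19.3 to 25.4 CPM at 3 years (-0.46 ± 0.09 SE). Of 44 glutamate receptor genes 6 fell, 1 rose and 37 did not pass (15.9% called). Both copies of the AMPA receptor gene GRIA3 fell (-0.30 ± 0.07 SE and -0.25 ± 0.07 SE), with GRID1 (-0.33) and GRIN1 (ENSDARG00000027828, -0.24). The other gene with the symbol GRIN1, ENSDARG00000025728, did not pass (0.01 ± 0.06 SE, adjusted p = 0.928 with edgeR). No gene of either list passed without the low-HOX libraries.

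Vesicle release and axon guidance genes were called in both directions. In the vesicle list 8 rose and 9 fell of 107 (15.9% called). SNAP29, a fusion protein of endosomes and autophagosomes, had 27.3 to 30.5 CPM at 1 year and 16.9 to 23.9 CPM at 3 years (-0.45 ± 0.06 SE, adjusted p = 0.0012), and rims2b of the presynaptic active zone had 87.2 to 109.0 and 70.5 to 84.1 CPM (-0.30 ± 0.05 SE). Neither overlapped, and both passed the test without the low-HOX libraries. In the guidance list 8 rose and 5 fell of 96 (13.5%), with plxnb2b, a semaphorin receptor, rising from 3.64 to 11.9 CPM to 9.61 to 48.5 CPM (1.75 ± 0.36 SE). It did not pass with the HOX level as covariate (adjusted p = 0.0588 with edgeR) or without the low-HOX libraries (0.112). The receptors ROBO2 (-0.30), EPHB3 (-0.33) and PLXNA1 (-0.31) fell, and they too did not pass without the low-HOX libraries.

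Some neuronal increases concerned 1 of 2 genes with the same symbol. The active zone gene ERC1 rose in ENSDARG00000076014 (1.15 ± 0.28 SE) and did not pass in ENSDARG00000009941 (-0.11 ± 0.04 SE). The ERC1 increase did not pass with the HOX level as covariate (adjusted p = 0.117 with edgeR) or without the low-HOX libraries (0.207). STXBP5, a brake on vesicle fusion, rose in ENSDARG00000029234 (1.19) and did not pass in ENSDARG00000002656 (-0.10). Of 1349 symbols held by exactly 2 tested genes, 242 had 1 copy called and 21 both, of which 17 moved in the same direction. The protease gene CAPN1 was among the 4 with copies in opposite directions (-1.005 and 0.73). At least 1 copy was called for 19.5% of these symbols. Each symbol has 2 copies that can be called, so this share cannot be set against the 9.93% of single genes. Whether these pairs differ from pairs of unrelated genes was not tested.

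**Figure D4:**
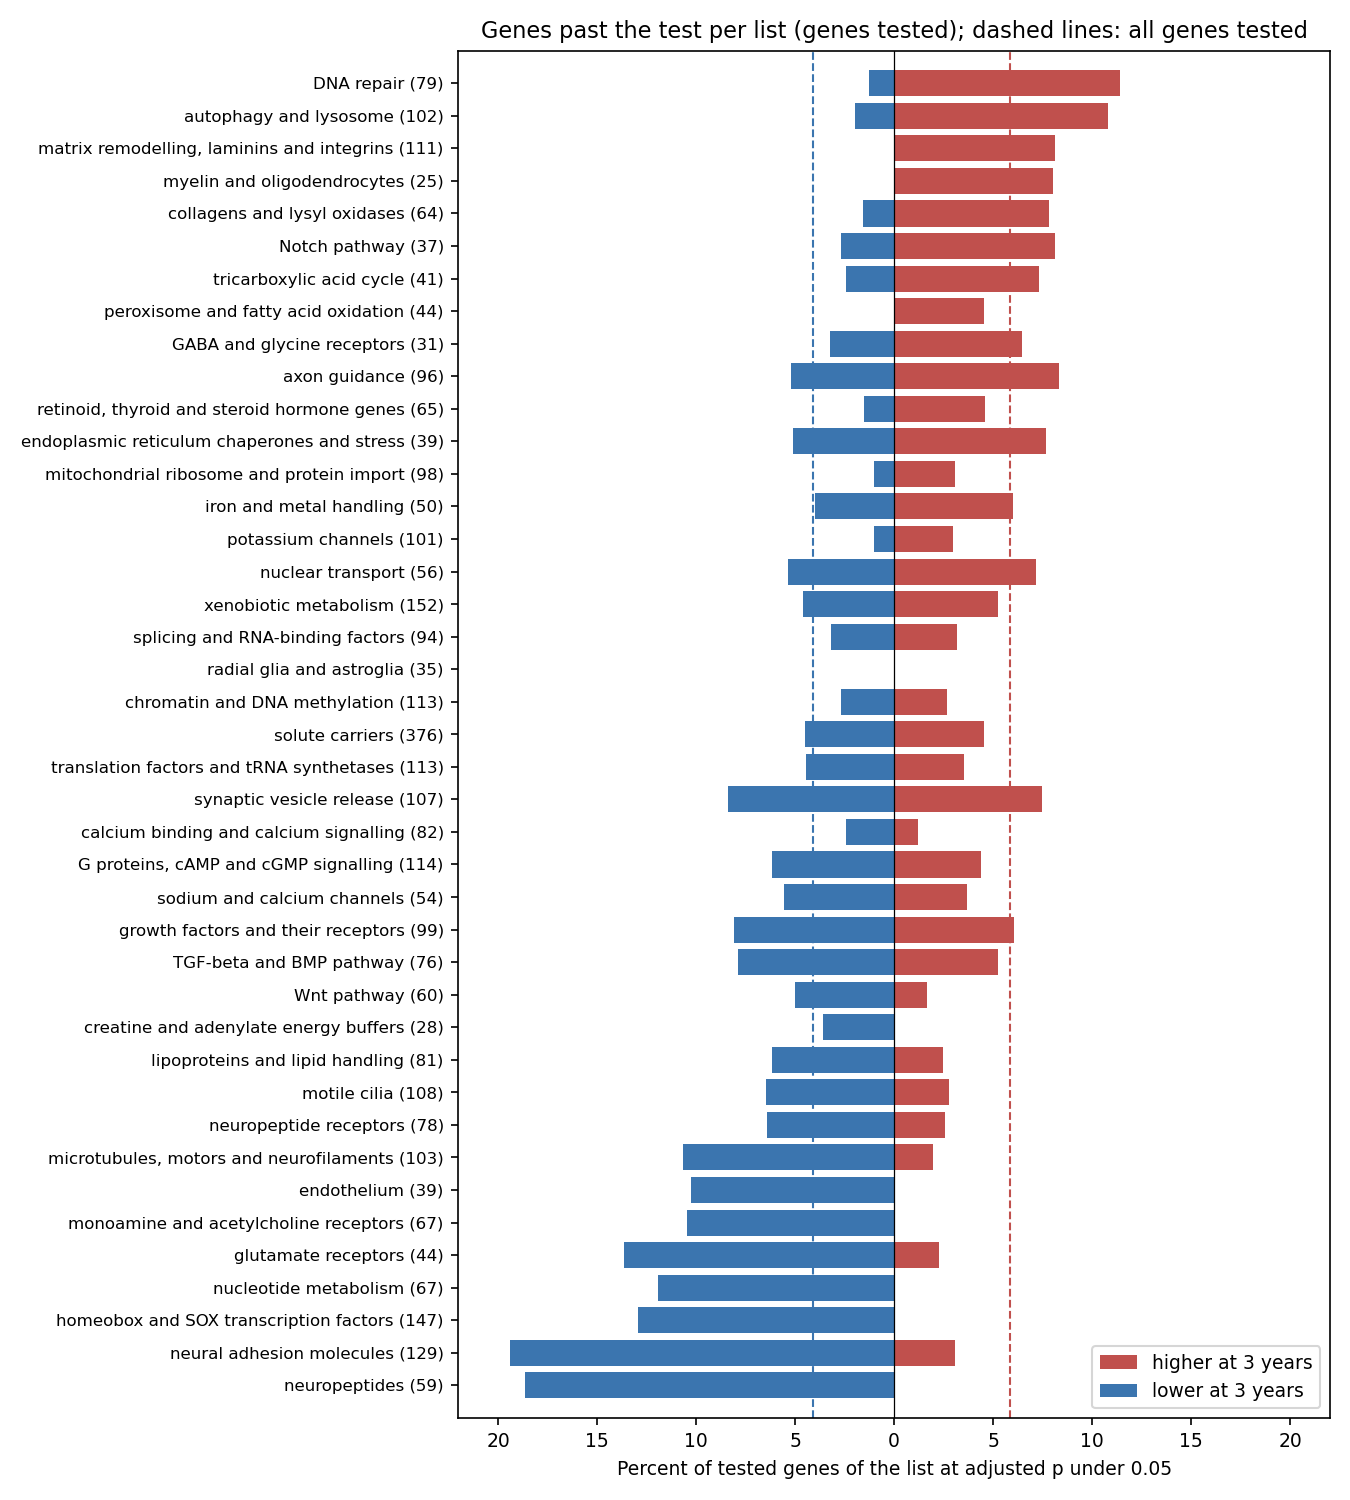
Percent of tested genes that rose (red, right) or fell (blue, left) at adjusted p under 0.05 in each list of at least 20 tested genes outside the immune list and the marker lists of tissues and blood or immune cells, with the number tested in parentheses and dashed lines for all genes (5.83% and 4.1%). Among the lists drawn, DNA repair and lysosome genes lie at the top, and neuropeptides and neural adhesion molecules at the bottom.

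Of 102 autophagy and lysosome genes, 11 rose, 2 fell and 89 did not pass, or 12.7% called beside 9.93% of all genes, with a median log2 fold change of 0.04. The cathepsins, lysosomal proteases, made up 6 of the 11. CTSH had 11.4 to 18.4 CPM at 1 year and 16.3 to 30.4 CPM at 3 years, overlapping in 3 year replicate 5 alone (0.67 ± 0.11 SE, adjusted p = 0.00298). CTSC (0.89 ± 0.16 SE), CTSB (0.44 ± 0.09 SE) and CTSZ (0.58 ± 0.14 SE) rose too, and the progranulin gene grna, whose product serves lysosomes, went from 23.4 to 48.8 CPM to 35.7 to 92.5 CPM (0.93 ± 0.18 SE).

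Macrophages are rich in these proteins, and their markers rose in the same brains. Of 27 microglia and macrophage markers 13 rose, none fell and 14 did not pass, or 48.1% called beside 9.93% of all genes. Their summed levels were 1198 to 1763 CPM at 1 year and 1477 to 2699 CPM at 3 years. The lowest at 3 years were replicates 1 (1477 CPM) and 5 (1601 CPM). Among 19 lymphocyte and granulocyte markers, 8 rose, none fell and 11 did not pass (42.1% called), with a median log2 fold change of 0.96. Their summed levels overlapped, at 141.6 to 234.5 CPM at 1 year and 148.1 to 283.5 CPM at 3 years. The part of macrophages or of these other cells in the lysosome result was not tested. With the HOX level as covariate 5 lysosome genes and 5 macrophage markers rose, and without the low-HOX libraries 1 and 0.

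Of 79 DNA repair genes 9 rose, 1 fell and 69 did not pass (12.7% called, beside 9.93% of all genes). ATM, the kinase that signals double strand breaks, went from 12.5 to 20.9 CPM to 19.4 to 34.5 CPM (0.56 ± 0.10 SE, adjusted p = 0.00407), above the 1 year median in 7 of 7 fish. ERCC1, an excision repair nuclease subunit, had 5.88 to 8.29 and 8.33 to 10.4 CPM without overlap (0.41 ± 0.08 SE). In the RefSeq gene order ERCC1 ends a run of 5 called genes, all higher, beside the granzyme genes gzm3, gzm3.2, gzm3.3 and gzm3.4. Whether these neighbours share reads was not tested. RAD51C of recombination repair (0.89) and RAD17 (0.37) rose, and FANCF of crosslink repair fell (-0.86). Another 4 of the increases were PARP family genes (parp9, PARP12, parp14rs1 and parp14rs3), of which several are interferon-induced in mammals. PARP12 (0.64 ± 0.18 SE) lost its call in 10 of 16 fits that left out 1 library. Without the low-HOX libraries none of these DNA repair genes passed.

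Of 67 genes of nucleotide metabolism 8 fell, none rose and 59 did not pass (11.9% called, beside 9.93% of all genes). RRM1, a subunit of ribonucleotide reductase, which makes DNA building blocks, had 23.8 to 27.8 CPM at 1 year and 19.4 to 23.5 CPM at 3 years without overlap (-0.27 ± 0.05 SE). Its partner RRM2 (ENSDARG00000078069) went from 1.12 to 9.63 CPM to 0.364 to 3.17 CPM (-1.80 ± 0.41 SE). The other gene with this symbol, ENSDARG00000020711, had a median of 0.0399 CPM at 1 year and 1.64 CPM at 3 years and did not pass (1.29 ± 0.92 SE, adjusted p = 0.378 with edgeR), with 7 of 7 older fish above the 1 year median. The nucleoside diphosphate kinase gene nme2a had 4.96 to 11.1 CPM at 1 year and at most 4.74 CPM at 3 years, with a median of 0.566 (-2.42 ± 0.46 SE). Brains of 1 year at 3.75 nM had 0.444 to 9.11 CPM of nme2a (median 4.55), overlapping the ranges of both ages. ADK, IMPDH2 and hprt1l, of purine salvage and synthesis, fell by 0.29, 0.39 and 0.22 on the log2 scale. ATIC, of purine synthesis and outside the pattern of this list, rose from a median of 12.6 to 20.4 CPM without overlap (0.76 ± 0.10 SE) and was chosen after its values were seen.

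Of 111 genes of matrix remodelling, laminins and integrins 9 rose, none fell and 102 did not pass, with a median of 0.17. The 8.11% called lay below the 9.93% of all genes. Part of these are leukocyte integrins, such as itgb2 (0.95 ± 0.18 SE, from 14.7 to 28.0 CPM to 18.9 to 51.4 CPM), and others belong to basement membranes and their receptors, such as the perlecan gene HSPG2 (0.61 ± 0.17 SE) and ITGA6 (0.30 ± 0.08 SE). HSPG2 lost its call in 10 of 16 fits that left out 1 library, and ITGA6 in 5. Of 39 endothelial genes 4 fell, none rose and 35 did not pass (10.3%, near the share of all genes), with a median of -0.21: tek, the angiopoietin receptor (-0.68 ± 0.16 SE), the tight junction gene CLDN5 (ENSDARG00000043716, -0.54 ± 0.14 SE), SLC16A1 (ENSDARG00000068572, -0.31) and sox18 (-0.42). The call of SLC16A1 was lost in 9 such fits and that of CLDN5 in 2. The summed endothelial level was 942.1 to 1357 CPM at 1 year and 882.7 to 1312 CPM at 3 years. The flk gene kdrl did not pass the test (-0.23 ± 0.11 SE, adjusted p = 0.162), and no gene of this endothelial list passed with the HOX level as covariate. The endothelial receptor gene acvrl1, outside this list, did pass with that covariate (-0.67, adjusted p = 0.0133 with edgeR).

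A set of 124 genes passed in 4 fits: with all libraries, with the HOX level as covariate, without the low-HOX libraries, and without the libraries with high muscle, eye, pituitary or skin scores. Of these, 84 rose and 40 fell. The set was formed after the data were seen, and 28 match the immune pattern, 30 have clone names, and 66 are other named genes (37 higher, 29 lower). Besides genes already described it held PFKFB3, which speeds glycolysis (median 94.8 and 162.7 CPM, 0.80 ± 0.16 SE), the brain glycogen phosphorylase PYGB (0.36) and ASL of arginine synthesis (0.68 ± 0.09 SE, without overlap). Among its falls were the RNA-binding genes YBX1 (571.3 to 814.8 CPM and 457.1 to 602.7 CPM, -0.37 ± 0.07 SE) and pabpc1b, of poly(A) binding (-0.31 ± 0.06 SE), and the ribosomal protein gene RPL29 (-0.24 ± 0.05 SE).

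Single fish departed from their age group in a way that differed between individuals. Of 474 genes called with at least 2-fold change, 103 had 3 year replicate 1 alone inside the 1 year range, 38 had replicate 5 alone, and the other 3 year fish 0 to 11 each. Of the 103 genes of replicate 1, 23 match the immune pattern and 42 have clone names, in a brain whose summed macrophage markers (1477 CPM) were the lowest at 3 years. Of the 38 genes of replicate 5, 5 match the immune pattern, and the others include GTF3C3, mdh1b, fastkd2, NDRG1, inppl1b and the heat shock gene hsp70l (2.17 ± 0.36 SE). At 1 year, replicate 1 alone lay inside the 3 year range in 39 genes, replicate 9 in 15 and the others in 4 to 11 each.

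**Figure D5:**
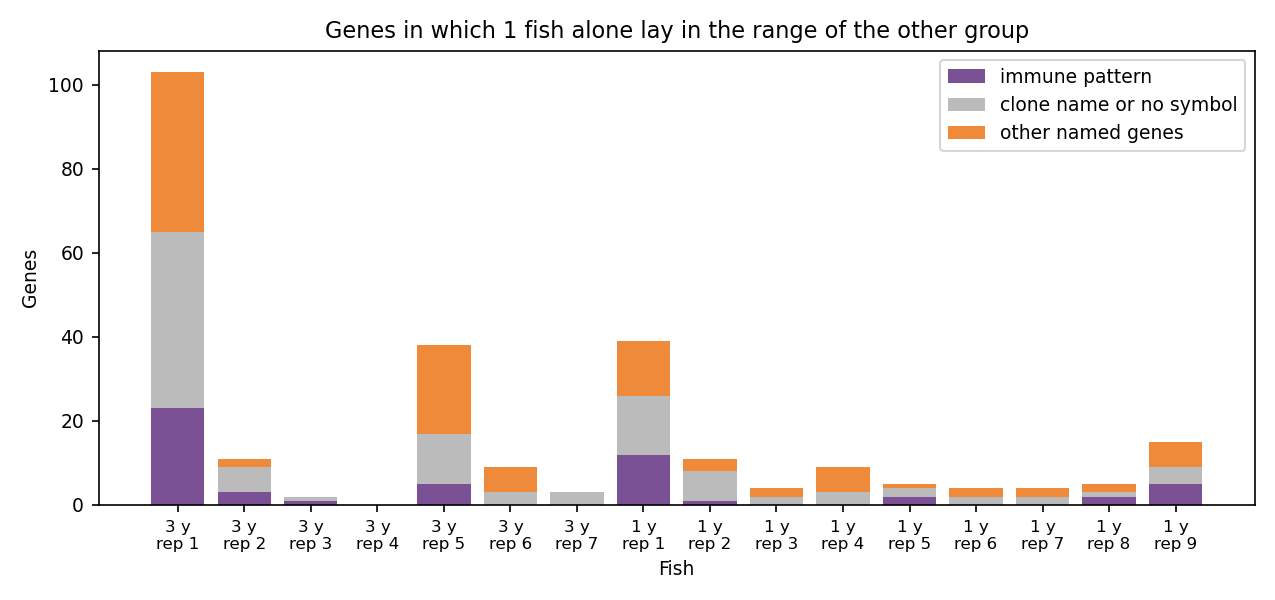
Number of genes, of 474 called with at least 2-fold change, in which 1 fish alone lay inside the range of the other age, per fish and by kind of gene. Replicates 1 (103 genes) and 5 (38 genes) lead at 3 years and replicate 1 (39 genes) at 1 year.

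Genes with clone names or none also changed. The gene si:ch211-236p5.3 (ENSDARG00000086418) had 0.129 to 0.797 CPM at 1 year and 15.9 to 42.7 CPM in 6 brains of 3 years, and 1.07 CPM in replicate 5. Its log2 fold change was 5.47 ± 0.53 (SE, adjusted p = 0.000172), the groups did not overlap, and the 3.75 nM brains had 0.289 to 1.03 CPM. ENSDARG00000100332 fell from 9.02 to 12.8 CPM to 3.24 to 7.02 CPM, also without overlap (-0.94 ± 0.13 SE).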

How the data were processed

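RNA of 16 male zebrafish brains was sequenced. The labels' protocols name the TruSeq RNA kit v2, which keeps no strand, so reads of overlapping genes cannot be told apart. The authors deposited raw counts for 32105 genes, with no normalization. The submitters' processing notes name CASAVA 1.8.2, STAR 2.4.1d, featureCounts 1.4.6-p4 and GRCz10, without role or order. Neither the annotation release nor the handling of multiply matching reads is stated, so near-identical copies are uncertain. The authors' RPKM tables were not used.

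Symbols were found for 26269 genes (81.8%). RefSeq gene positions of GRCz12tu, another assembly, served only to tell which of 16300 matched genes are neighbours.

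Counts were fitted in R 4.3.3 with edgeR 4.0.16 (glmQLFit, glmQLFTest): TMM, filterByExpr, robust dispersion, title run as covariate, Benjamini-Hochberg at 0.05 over 19887 genes. SE is the log2 fold change over the square root of F, and CPM use TMM library sizes. The steps were tested on simulated counts. DESeq2 1.42.0 and limma 3.58.1 gave alternatives. Depth, 21.1 to 36 in units of 1000000 counts, limits the precision of low genes.

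Genes named are the 12 largest increases and 12 largest decreases outside the immune pattern (mean log2 CPM of at least 3, same sign in both runs, no clone name), 3 clone-named genes per direction, the 3 members with the smallest adjusted p in each list with at least 2 called, and runs of at least 3 called neighbours. Of the genes this rule names, those not printed are in the counts of their lists, and some are not reported here. Other genes named with values are list members, copies of a named gene, or were chosen after their values were seen. The 53 lists and the comparison itself were chosen with earlier results of these data known. The region lists and both HOX alternatives were chosen after seeing the data.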

Additional observations from a re-analysis of the deposited data

Results flagged for a closer look

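In 22 of 282 groups of values (each gene at each age), 1 library stood apart from the rest of its age group, all in log2 CPM; chance flags about 1 in 20 groups. At 3 years, replicate 5 was low for GTF3C3 (3.84), NDRG1 (3.62), SMAD1 (5.0), si:ch211-236p5.3 (0.19) and SUCLG2 (3.98), and high for CLDN5 (4.64) and PNPLA6 (7.55). Replicate 1 was high for prl2 (3.69), pnocb (5.16) and GRIA3 (8.12) and low for itgb2 (4.25). Replicate 4 was low for CACNG2 (6.16) and GRIK5 (5.29), replicate 3 for tuba1c (8.77) and slc24a6a (6.76), and replicate 2 was high for EIF4E2 (5.6). At 1 year, replicate 3 was high for calm2a (9.23), replicate 5 for MAP1A (9.06) and replicate 9 for PARP12 (4.25), while replicate 1 was low for DRC3 (4.25) and HSD17B4 (5.28) and replicate 6 for col18a1a (3.87).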

How the results depend on the processing

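No paired analysis was possible because each library has its own fish number and the labels give the ages no shared replicate numbers. Against 1160 genes higher and 815 lower, counts moved by less than 1.5 times without the covariate, under both other normalizations, voom and both other filters. DESeq2 gave 1686 and 1382, with 16 genes in the test between runs. The lower run gave 5 and 11, the higher run 651 and 414, and leaving out the 4 libraries with high muscle, eye, pituitary or skin scores 588 and 322. With the HOX level as covariate 383 were higher and 201 lower; without the 4 low-HOX libraries 112 and 67, with 2 genes in the test between runs. The fits on subsets of libraries hold fewer samples; beyond that the cause was not tested. Leaving out 1 library gave 751 to 1484 higher and 441 to 1102 lower, with 0 to 1 genes in the test between runs; the lowest counts came without 3 year replicate 4, then without replicate 7 (757 and 452). Of 139 genes named by rule, 38 lost their call in at least 1 of these fits. None of the 139 genes changed sign under any of these. The naming rule already required a call on these libraries and the same sign in both runs, so this is no separate support for their direction. Without the low-HOX libraries 25 of the 139 passed, and with the HOX covariate 64. Genes under 1 CPM rest on about 21.1 counts or fewer in the smallest library.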

Other observations

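Lists linked to hormones, toxins, metals and mitochondria had shares of called genes near or below the 9.93% of all genes. In the hormone list 3 rose and 1 fell of 65 (6.15%): the mineralocorticoid receptor NR3C2 went from 4.99 to 20.6 CPM to 14.9 to 36.4 CPM (1.01 ± 0.27 SE), and the estrogen receptor ESR1 fell from a median of 10.8 to 6.07 CPM (-0.75 ± 0.20 SE); the calls were lost in 5 and 3 of 16 fits that left out 1 library. Of 152 genes of xenobiotic metabolism, which handles toxins such as pesticides, 8 rose and 7 fell (9.87%). Among them the efflux transporter ABCC5 went from 864.4 to 1014 CPM to 720.7 to 876.4 CPM (-0.24 ± 0.05 SE). In the iron and metal list 3 rose and 2 fell of 50 (10.0%), with IREB2, a sensor of iron, at -0.21 and the ferrireductase STEAP4 at 0.66; leaving out any of 8 and 9 single libraries ended these calls. Of 98 genes of the mitochondrial ribosome and protein import 3 rose and 1 fell (4.08%), and of 41 genes of the tricarboxylic acid cycle 3 rose and 1 fell (9.76%), with pyruvate carboxylase PC (ENSDARG00000098766) at 0.23 and pdha1a of pyruvate dehydrogenase at -0.22, calls lost in 4 and 12 such fits.

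Genes of motile cilia counted 7 falls and 3 increases of 108 (9.26%), with a median log2 fold change of -0.12. The transport proteins IFT74 and IFT81 work as a pair in the cilium, and their genes moved apart in the fit to all libraries. The ift74 gene went from 60.9 to 71.0 CPM to 31.8 to 62.2 CPM (-0.64 ± 0.11 SE), and IFT81 from 7.17 to 10.0 CPM to 8.66 to 12.3 CPM (0.37 ± 0.09 SE). IFT81 did not pass with the HOX level as covariate (adjusted p = 0.0714 with edgeR). It also did not pass without the low-HOX libraries (0.119) or without those with high muscle, eye, pituitary or skin scores (0.0869). Of these fits, ift74 did not pass without the low-HOX libraries (0.0501).

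Of the genes tested, 13658 had a position in the RefSeq order, and 1373 of these were called. Among those called, 25.7% had a called neighbour, beside 18.0% of the other genes. Neighbours here are the nearest tested genes with a position, so other genes can lie between them. The run from si:dkeyp-77c4.1 to si:dkey-29j8.1 spans 36 RefSeq genes. Counted from each called gene outside the immune pattern, there were 329 called neighbours, 198 of the same direction. A pair of such genes is counted from both sides. The share of same direction among unrelated called genes was not computed, and of all called genes 1160 rose and 815 fell. There were 24 runs of at least 3 called genes, of which 14 moved in 1 direction. Some of these hold immune gene families, such as the gzm3 genes and nitr2a, nitr2b and nitr5 (higher). Other examples are mdh1b, fastkd2 and GTF3C3 (higher) and RCAN2, cyp39a1 and REPS1 (lower, -0.27, -0.41 and -0.17). Neighbours that overlap can share reads in unstranded libraries.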
